A study of Mus musculus with 6 samples.

Results

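The 10 genes described here encode RNA-binding proteins that select exons in a tissue-dependent way. They are Rbfox2, the muscleblind genes Mbnl1, Mbnl2 and Mbnl3, the CELF genes Celf1 and Celf2, the polypyrimidine tract binding genes Ptbp1 and Ptbp3, quaking (Qk), and Khdrbs1, which encodes SAM68. They were chosen by name as Rbfox2 and other known splicing regulators, and all 10 were found among the 22969 gene identifiers of the count table. Each stood on a single row, and all 10 passed the filter on low counts together with 12340 other genes. RNA was sequenced from hematopoietic stem cells of adult C57BL/6 mouse bone marrow, sorted as lineage-negative, Sca-1+, c-Kit+, CD150+ and CD48- cells, with about 500 cells for each library. Library preparation followed Smart-seq2, in which cDNA of whole transcripts is amplified by PCR and molecules carry no identifiers. The 3 control mice had the genotype Rbfox2-fl/fl, and the 3 mice called Rbfox2-deleted had the genotype Vav1-cre; Rbfox2-fl/fl, in which the Vav1 promoter is known to drive Cre throughout the blood lineages. All 6 mice thus carried the floxed Rbfox2 alleles, and the controls carried no Cre. The sources used here do not give the exon removed by Cre or the exact ages of the mice. In what follows, control 1, 2 and 3 and deleted 1, 2 and 3 stand for the libraries that carry those labels.

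These proteins bind short RNA motifs in or beside alternative exons, and the position of the binding site often sets whether the exon is kept or skipped. RBFOX proteins recognise UGCAUG, MBNL proteins bind motifs with a GC core in a pyrimidine context, CELF proteins bind GU-rich sequence, PTB proteins bind pyrimidine tracts, and the STAR proteins quaking and SAM68 bind UA-rich motifs. MBNL and CELF proteins act in opposite directions on many exons of heart and skeletal muscle, and PTBP1 represses neural exons outside the nervous system. Several of the genes regulate exons in their own transcripts or in those of their relatives. The comparison of the genotypes asks here how abundant each regulator is in stem cells, and whether the level of a relative is higher where Rbfox2 is low.

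The 93-base exon of Rbfox2 is shown because it encodes part of the RNA recognition motif and can be skipped, which gives a protein that binds RNA poorly. It lies at chr15:77105577-77105669 (GRCm38, the same assembly as mm10, minus strand), and the capitals mark its 27 bases within the longest coding stretch that Rbfox2 shares with Rbfox1.
Rbfox2 93-base exon: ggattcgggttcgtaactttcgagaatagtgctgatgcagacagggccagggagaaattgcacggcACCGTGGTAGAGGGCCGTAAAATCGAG
The whole shared stretch was 29 bases long, and Rbfox2 and Rbfox1 had no run of 50 bases in common, so a read of that length is specific to one of them. Rbfox2 had 5 annotated cassette exons, meaning internal exons that some annotated transcripts skip, of 40 to 93 bases.

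The cassette exons of the muscleblind genes are shown because the balance among these 3 genes carries much of the description of the libraries. The 54-base exon, known to promote nuclear localisation of MBNL proteins, lies at chr3:60614683-60614736 in Mbnl1 and at chr14:120395712-120395765 in Mbnl2, both on the plus strand. Capitals mark the bases that differ from Mbnl1.
Mbnl1 54-base exon: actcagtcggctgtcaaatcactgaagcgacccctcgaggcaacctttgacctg
Mbnl2 54-base exon: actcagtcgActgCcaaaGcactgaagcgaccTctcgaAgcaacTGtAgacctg
These exons differed at 8 positions and were 85.2% identical. A 36-base exon was annotated as a cassette exon in all 3 genes, at chr3:60621423-60621458 in Mbnl1, chr14:120403336-120403371 in Mbnl2 and chrX:51126126-51126161 (minus strand) in Mbnl3.
Mbnl1 36-base exon: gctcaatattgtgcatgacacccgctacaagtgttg
Mbnl2 36-base exon: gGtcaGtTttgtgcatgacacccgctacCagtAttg
Mbnl3 36-base exon: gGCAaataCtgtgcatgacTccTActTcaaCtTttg
The Mbnl2 copy was 86.1% identical to that of Mbnl1, and the Mbnl3 copy 72.2%. The longest coding stretch shared by Mbnl1 and Mbnl2 was 26 bases.

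The 34-base exon of Ptbp1 is shown because its skipping shifts the reading frame and sends the transcript to decay, a step through which PTB proteins limit their own level. It lies at chr10:79862014-79862047 on the plus strand.
Ptbp1 34-base exon: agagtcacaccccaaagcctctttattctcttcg
The deposited counts sum all isoforms of a gene, so the use of these exons was not measured. The exons printed were picked from the annotated cassette exons after the levels had been seen.

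Across the libraries, depth lay between 23474895 counts (deleted 1) and 55151484 (control 3), with 14154 to 17087 genes detected. Controls 1 and 3 differed far less from each other than any other pair did (chi-square per degree of freedom 3.44, against 156 to 808), so their counts were summed and treated as 1 sample, which left 2 control samples against 3. In a principal component analysis deleted 1 stood apart, with a first coordinate of 212 where the other 4 samples lay from -55.7 to -50.8, and that component carried 63.9% of the variance. Deleted 1 and 3 held 2821 and 2467 counts of Xist and 0 of the Y-linked Eif2s3y. The other 4 libraries held at most 55 of Xist and at least 576 of Eif2s3y, so the genotypes also differed in sex. No control was female, so a fit with sex as a covariate sets deleted 2 alone against the controls. Of the stem cell markers, all 10 passed the filter, with summed CPM (counts scaled to 1000000 per library total) of 1753 to 1789 in control and 1309 to 1909 in the libraries labelled deleted. Cd48 had 0 counts in 5 libraries and 3 in deleted 3. Pax5, Ms4a1 and Cd3e each had at most 3 counts in any library. Not every B or T cell marker was so low, with Cd79b at 4183 to 17279 counts and Cd4 at 0 to 237. The labels name separate mice, but p-values from 5 samples measure only the spread between these samples.

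Rbfox2 (chr15:77078990-77307004, minus strand) did not separate the genotypes. It had 238, 11 and 250 counts in control 1, 2 and 3, which is 4.97, 0.213 and 4.53 CPM. It had 2, 87 and 10 counts in deleted 1, 2 and 3, which is 0.0852, 2.44 and 0.300 CPM. Control 2 therefore lay at the level of deleted 1 and 3, and deleted 2 lay between these and control 1 and 3. So control 2 went against its label, and it is 1 of only 2 control samples. Deleted 2 was below control 1 and 3 but kept more Rbfox2 counts than control 2. The 95% Poisson interval of control 2 (0.106 to 0.381 CPM) lay below that of deleted 2 (1.95 to 3.01 CPM), and it overlapped those of deleted 1 (0.0103 to 0.308) and deleted 3 (0.144 to 0.552). Such intervals cover counting error only, since reads from PCR are not independent molecules. The log2 fold change, Rbfox2-deleted minus control, was -1.49 (SE 1.998, n = 2 against 3), with an adjusted p of 0.923 by edgeR's quasi-likelihood test with Benjamini-Hochberg adjustment over all genes tested. It was -2.41 without control 2 and -3.76 without deleted 2, and 1.90 when control 2 alone stood for the control group. With sex as a covariate, which sets deleted 2 alone against the controls, it was -0.13. Because a gene with 1 exon removed can still give reads from its other exons, a whole-gene count is not a direct measure of the deletion. In these bulk libraries fewer cells with the transcript and less transcript per cell cannot be told apart.

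**Figure D1:**
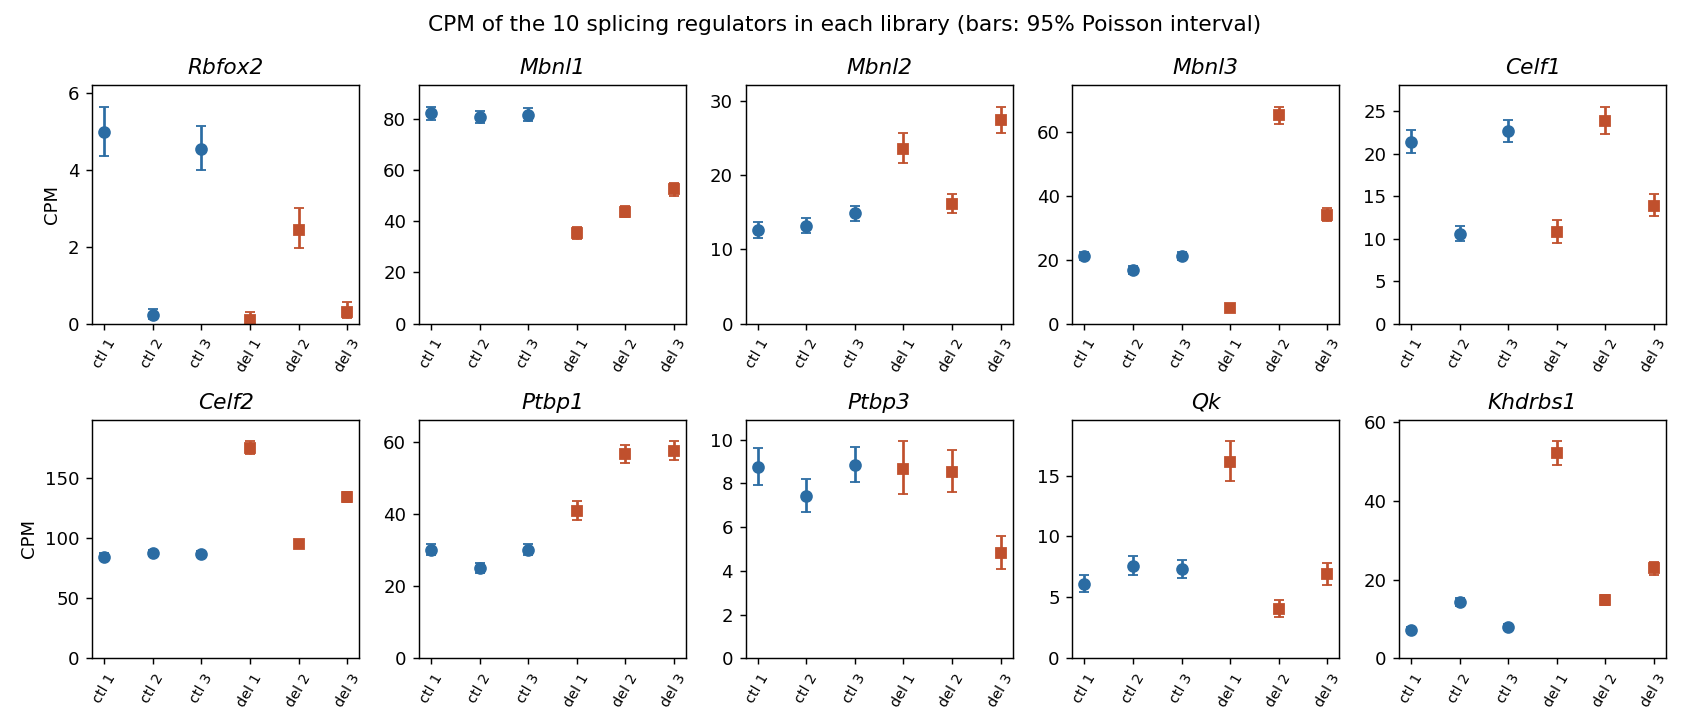
CPM of each of the 10 splicing regulators (vertical axes, linear and starting at 0, with a separate scale for each gene) in the 3 control (ctl, circles) and 3 Rbfox2-deleted (del, squares) libraries, with 95% Poisson intervals as bars. Mbnl1 lies between 80.8 and 82.3 in control and between 35.4 and 52.5 in the libraries labelled deleted, whereas Rbfox2 is low in control 2 and at 2.44 in deleted 2.

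The relatives Rbfox1 and Rbfox3 are best known from neurons and muscle (Rbfox1) and from neurons (Rbfox3). Rbfox1 had 69 counts in control 2 (1.34 CPM, interval 1.04 to 1.69), the control with little Rbfox2. In the other libraries it had between 0 and 3 counts, and the 0 in deleted 2 allows up to 0.103 CPM. Rbfox1 thus held 90.2% of the summed RBFOX level per kilobase of merged annotated exons in control 2, while Rbfox2 held 98.1% and 97.6% in control 1 and 3. In deleted 1 and 3, which had as little Rbfox2 as control 2, Rbfox1 was at 3 and 1 counts. Rbfox3 had 1 to 3 counts in every library. The summed RBFOX level was 0.622, 0.336 and 0.570 CPM per kilobase in control 1, 2 and 3, and 0.0542, 0.305 and 0.0488 in deleted 1, 2 and 3. Neither relative passed the filter, so neither was tested.

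Of the 10 regulators, none passed an adjusted p of 0.05 in edgeR, DESeq2 or limma-voom. The share of all genes that passed was 0% in edgeR (0 of 12350), 0% in limma-voom and 1.58% in DESeq2 (181 of 11471 genes with an adjusted p). At an unadjusted p under 0.05, edgeR gave 0 of the 10 and 1221 of all genes (9.89%, 5.33% higher and 4.56% lower), and DESeq2 and limma-voom each gave 1 of the 10, Mbnl1, beside 12.1% and 13.7% of all genes. The fitted change was above 0 for 6 regulators and below 0 for 4, with a median of 0.49 on the log2 scale, beside a median of 0.11 and 53.5% above 0 over all genes tested. On plain CPM the groups did not overlap for 5 regulators, Mbnl2, Celf2, Ptbp1 and Khdrbs1 being higher and Mbnl1 lower in all 3 libraries labelled deleted. Over all genes 31.2% did not overlap, 15.8% higher and 15.4% lower. With CPM scaled by TMM factors the groups stayed apart for 3 regulators, Mbnl1, Mbnl2 and Ptbp1, beside 32% of all genes. With so large a background share, these counts do not set the regulators apart from other genes.

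**Figure D2:**
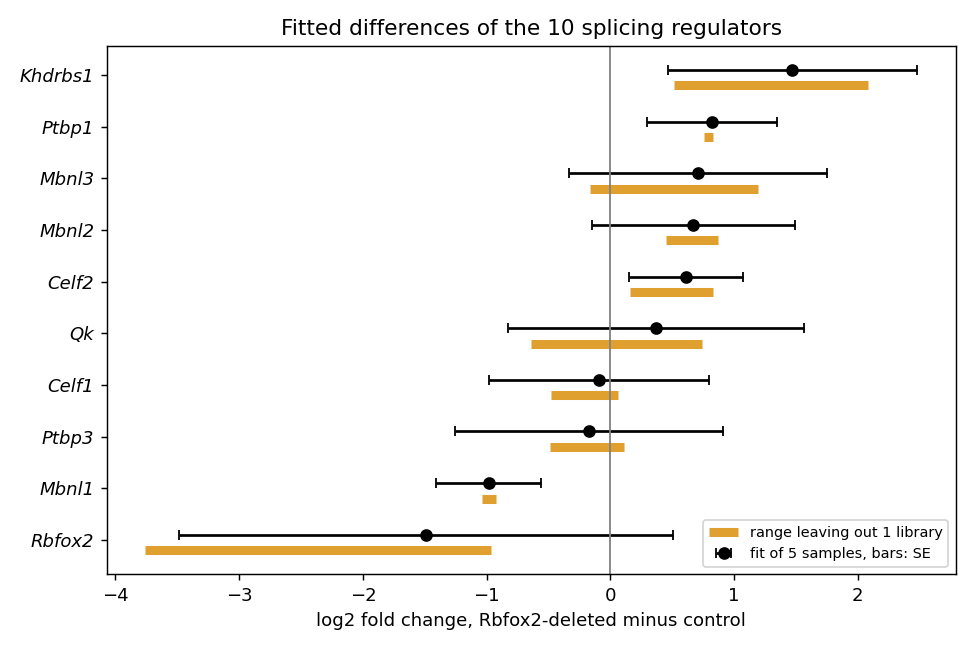
Fitted log2 fold change (horizontal axis, Rbfox2-deleted minus control) of each regulator from the fit of 5 samples, with its SE as a bar, and below it the range of values when 1 library was left out (orange). Mbnl1 stays near -1 and Ptbp1 near 0.8 whichever library is left out, while the ranges of Mbnl3, Qk, Celf1 and Ptbp3 cross 0.

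Among the muscleblind genes, Mbnl1 was lower and Mbnl2 higher in the 3 libraries labelled deleted than in any control, although neither passed the test. Mbnl1 (chr3:60472830-60629750) encodes the main muscleblind protein of most adult tissues. It was measured at 82.3, 80.8 and 81.8 CPM in control 1, 2 and 3 and at 35.4, 43.8 and 52.5 CPM in deleted 1, 2 and 3. The controls, which are 2 samples since control 1 and 3 count as 1, lay within 1.54 CPM of each other. Every library labelled deleted lay below all of them. Its log2 fold change was -0.98 ± 0.425 (SE), with an edgeR adjusted p of 0.528, and the fitted level was 0.506 of control. Control 2, low in Rbfox2, had the same Mbnl1 level as the other controls, and deleted 2, which kept some Rbfox2, had a level between those of deleted 1 and 3. Without deleted 1 the change was -0.99 with an edgeR adjusted p of 0.0981. In that fit 2924 of 12346 genes had an unadjusted edgeR p under 0.05. The Mbnl1 change without control 2 was -0.93. It was -0.32 with a transcript length correction and -0.43 with a GC correction. Summed megakaryocyte marker CPM, over 5 of 5 markers tested, was 267 to 271 in control and 44.0, 143 and 244 in deleted 1, 2 and 3, in the same order as Mbnl1. Of the 5 markers 3 had a fitted change below 0 and 2 above. Pf4 and Ppbp were at 0 in deleted 1 and in no control, whereas Gp1ba was at 0 in deleted 1 and also in control 2. Gp1ba in deleted 2 and 3 (5.27 and 1.71 CPM) and Itga2b in deleted 3 (44.9 CPM) exceeded every control. The part of those cells or transcripts in the Mbnl1 difference was not tested.

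Mbnl2 (chr14:120275669-120431697) encodes the muscleblind protein most abundant in brain. It was measured at 12.6, 13.2 and 14.8 CPM in control and at 23.6, 16.1 and 27.4 CPM in deleted 1, 2 and 3. The groups did not overlap, but deleted 2 was only 1.30 CPM above control 3, and the log2 fold change of 0.67 had an SE of 0.822 (edgeR adjusted p = 0.908). With sex as a covariate, a fit that sets deleted 2 alone against the controls, it was 0.10. Mbnl3 (chrX:51117269-51206532), an X-linked gene whose product is known from developing muscle and placenta, varied most among the muscleblind genes within the deleted group. Its CPM was 21.2, 16.8 and 21.1 in control and 4.98, 65.3 and 34.2 in deleted 1, 2 and 3. Deleted 1 thus lay below every control, and deleted 2 and 3 above. The log2 fold change of 0.71 (SE 1.04, edgeR adjusted p = 0.932) became -0.17 without deleted 2 and 1.63 with sex as a covariate.

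The family's make-up can be read within a library, where no scaling between libraries is needed. The ratios given here and below were chosen after the levels had been seen and are given without a test. The share of other gene pairs whose ratios do not overlap was not computed. Over single genes 31.2% did not overlap on plain CPM, so a ratio that separates the groups does not set a pair apart. The CPM ratio of Mbnl1 to Mbnl2 was 6.55, 6.14 and 5.52 in control 1, 2 and 3, and 1.505, 2.71 and 1.92 in deleted 1, 2 and 3. The lowest control ratio was therefore 2.03 times the highest ratio among the libraries labelled deleted. Per kilobase of merged exons, Mbnl1 held 55.9%, 58.9% and 54.5% of the summed muscleblind level in control and 42.8%, 21.0% and 31.2% in deleted 1, 2 and 3. The largest share was held by Mbnl2 in deleted 1 (44.4%) and by Mbnl3 in deleted 2 (67.0%) and deleted 3 (43.4%). This order depends on the length used, since per kilobase of the longest annotated transcript Mbnl1 held the largest share in deleted 1 (54.1%) and deleted 3 (43.1%), and Mbnl3 only in deleted 2 (56.9%). The family's summed level was 7.87, 7.33 and 8.02 CPM per kilobase in control and 4.43, 11.2 and 8.99 in deleted 1, 2 and 3. The summed level was thus lower than every control in deleted 1 and higher in deleted 2 and 3, so no common direction was seen for the family as a whole.

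**Figure D3:**
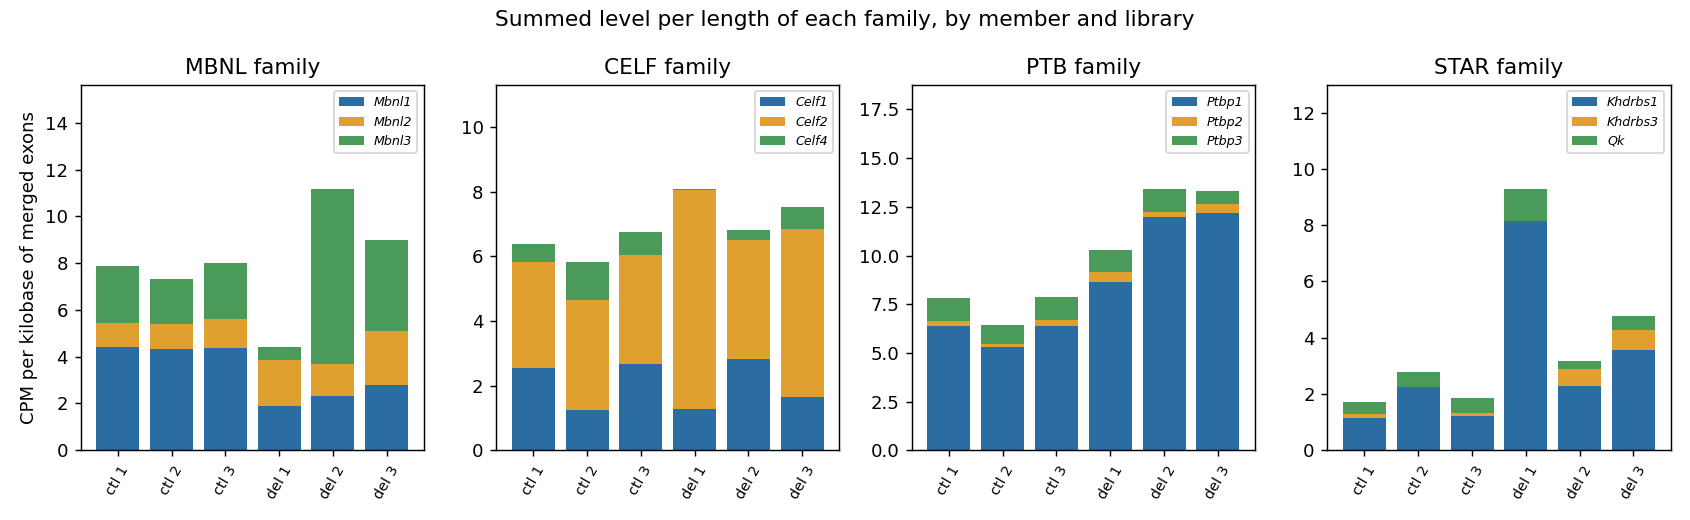
Summed CPM per kilobase of merged annotated exons (vertical axes from 0) for 4 families in each control (ctl) and Rbfox2-deleted (del) library, with the contribution of each member as a coloured segment. Relatives with 5 or fewer counts in every library are left out of the bars. Mbnl1 fills 54.5% to 58.9% of the muscleblind bar in control and 21.0% to 42.8% in the libraries labelled deleted.

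The CELF genes followed no single direction. Celf2 (chr2:6539694-7509563), abundant in blood cells, heart and brain, was measured at 84.8, 87.7 and 87.1 CPM in control and at 175, 94.9 and 134 CPM in deleted 1, 2 and 3. All 3 values lay above the controls, deleted 2 by the least. The fitted log2 difference of 0.61 (SE 0.460, edgeR adjusted p = 0.799) was 0.16 without deleted 1 and -0.031 with sex as a covariate. The annotated exons of Celf2 overlap the opposite-strand Gm26565, which shares 6.96% of its 50-base runs, and the sources used here do not say whether the counting used strand.

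Celf1 (chr2:90940382-91019497) encodes a GU-rich element binder that acts both in splicing and in mRNA decay. It was measured at 21.4, 10.6 and 22.6 CPM in control and at 10.8, 23.9 and 13.9 CPM in deleted 1, 2 and 3. Control 2 stood with deleted 1 and 3, as it did for Rbfox2. Deleted 2 stood with control 1 and 3 and slightly above them, whereas for Rbfox2 it lay below them. The range of Celf1 was much narrower, with 2.26 times between its highest and lowest library against 58.3 times for Rbfox2. Its log2 fold change was -0.09 ± 0.892 (SE), with an edgeR adjusted p of 0.991. Of the relatives, Celf4, best known from neurons, was measured at 4.78, 10.1 and 6.13 CPM in control and at 0.170, 2.81 and 5.998 CPM in deleted 1, 2 and 3, with deleted 3 above control 1 (log2 fold change -1.62, SE 1.55, edgeR adjusted p = 0.872). Once CPM were scaled by TMM factors, with control 1 and 3 as 1 sample, Celf4 was lower in all libraries labelled deleted, beside 32% of all genes that did not overlap. Celf3, Celf5 and Celf6 had at most 5 counts in any library and were not tested.

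In the PTB family, Ptbp1 and Ptbp2 had higher CPM in all 3 libraries labelled deleted than in any control, and neither passed the test. Ptbp1 (chr10:79854427-79864771) encodes the broadly expressed repressor of neural and muscle exons. It was measured at 30.2, 25.1 and 30.2 CPM in control and at 41.0, 56.7 and 57.6 CPM in deleted 1, 2 and 3. The groups did not overlap, with a fitted log2 difference of 0.82 (SE 0.525, edgeR adjusted p = 0.730). It stayed between 0.75 and 0.83 when any 1 library was left out, and it was 0.88 with sex as a covariate. Ptbp1 shares 18.3% of its 50-base runs with other annotated genes, mainly the antisense Gm17134, the neighbour E130317F20Rik and the pseudogene Gm4900, so part of its count may belong to them.

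Ptbp3 (chr4:59471868-59549364), first described in blood cells, had nearly the same level in 5 of the 6 libraries. It was measured at 8.75, 7.44 and 8.85 CPM in control and at 8.65, 8.53 and 4.798 CPM in deleted 1, 2 and 3. Its log2 fold change was -0.17 ± 1.08 (SE), with an edgeR adjusted p of 0.986. The CPM ratio of Ptbp1 to Ptbp3 was 3.45, 3.38 and 3.41 in control and 4.74, 6.64 and 12.0 in deleted 1, 2 and 3. Every library labelled deleted thus lay above the control range, in which control 1 and 3 count as 1 sample. Ptbp2, the neural relative that PTBP1 represses through an exon that leads to decay, was measured at 2.65, 1.30 and 2.74 CPM in control and at 4.39, 2.81 and 4.53 CPM in deleted 1, 2 and 3. Its groups overlapped once CPM were scaled by TMM factors. Its log2 fold change was 0.94 ± 1.37 (SE), with an edgeR adjusted p of 0.932. The summed family level was 7.83, 6.43 and 7.85 CPM per kilobase in control and 10.3, 13.4 and 13.3 in deleted 1, 2 and 3, and Ptbp1 made up 81.1% to 91.5% of it in every library.

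Of the STAR proteins, Khdrbs1 (chr4:129703164-129742303), which encodes the signal-responsive splicing factor SAM68, had the largest fitted increase of the 10 regulators. It was measured at 7.24, 14.3 and 7.83 CPM in control and at 52.2, 14.7 and 22.9 CPM in deleted 1, 2 and 3. Deleted 1 was far above the rest, and the 95% Poisson intervals of deleted 2 (13.5 to 16.01 CPM) and control 2 (13.3 to 15.4 CPM) overlapped. The fitted log2 difference of 1.47 (SE 1.01, edgeR adjusted p = 0.763) was 0.52 without deleted 1 and 0.25 with sex as a covariate. Qk (chr17:10202601-10319854), whose product acts in myelination and vessel development, was measured at 6.10, 7.59 and 7.33 CPM in control and at 16.1, 4.04 and 6.90 CPM in deleted 1, 2 and 3. Only deleted 1 exceeded the controls, and the log2 fold change of 0.37 (SE 1.20, edgeR adjusted p = 0.974) became -0.64 without it. Celf2, Qk and Khdrbs1 all had their highest level in deleted 1, the shallowest library. There, summed erythroid marker CPM, over 5 of 7 markers tested, was 483, against 97.9 to 151 in control and 67.2 and 172 in deleted 2 and 3, with Klf1 at 0, and the part of this in these levels was not tested.

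The CPM ratio of Khdrbs1 to Qk was 1.19, 1.89 and 1.07 in control and 3.24, 3.64 and 3.32 in deleted 1, 2 and 3. This ratio was nearly constant among the libraries labelled deleted, although Khdrbs1 differed 3.55-fold and Qk 3.99-fold between them. By contrast, the ratio of Celf2 to Celf1 overlapped between the groups, at 3.96, 8.28 and 3.85 in control and 16.3, 3.97 and 9.68 in deleted 1, 2 and 3. Among the STAR relatives, Khdrbs3 was measured at 0.543, 0.116 and 0.399 CPM in control and at 0.0426, 2.19 and 2.61 CPM in deleted 1, 2 and 3 (log2 fold change 2.28, SE 2.004, edgeR adjusted p = 0.854). Khdrbs2 had at most 1 count in any library and was not tested.

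**Figure D4:**
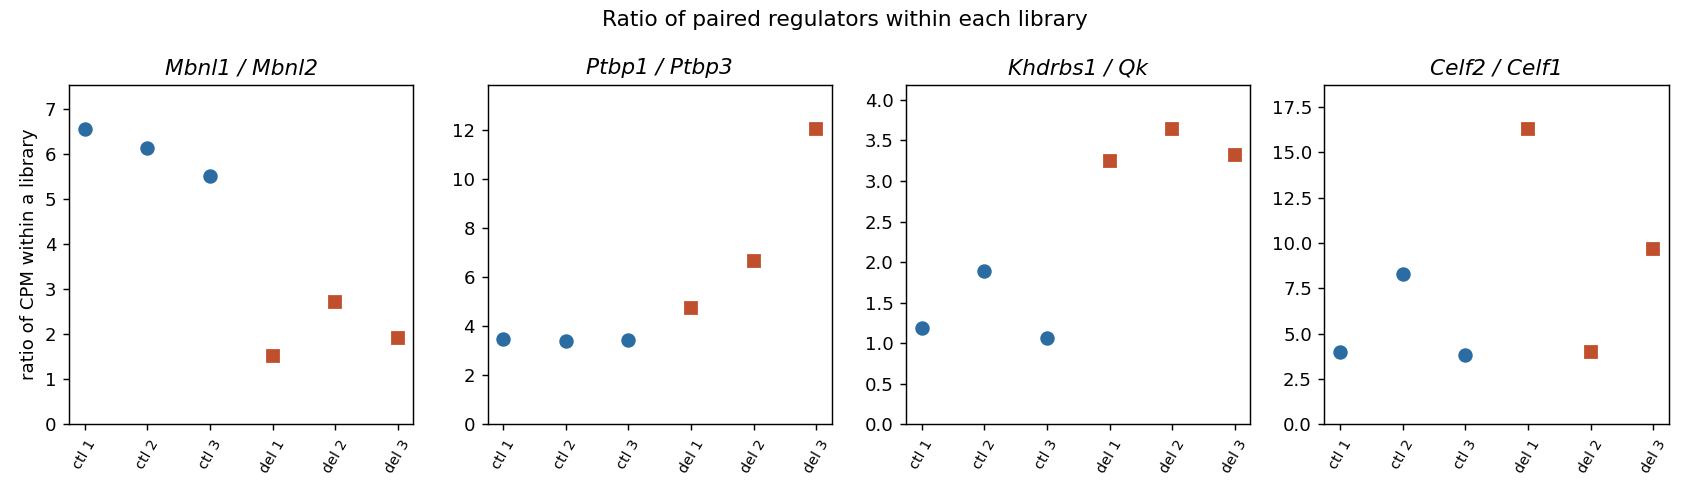
Ratio of the CPM of 2 regulators within each control (ctl, circles) and Rbfox2-deleted (del, squares) library, on linear axes that start at 0. The ratios of Mbnl1 to Mbnl2, Ptbp1 to Ptbp3 and Khdrbs1 to Qk do not overlap between the groups, and that of Celf2 to Celf1 does. The pairs were chosen after the levels had been seen, and the share over other gene pairs was not computed.

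The order of the genes by level was read per kilobase of merged annotated exons, since the CPM ratios above follow a pair of genes across libraries and do not correct for length. In control, Ptbp1 was highest with a mean of 5.83 CPM per kilobase, followed by Mbnl1 (4.35), Celf2 (3.36), Mbnl3 (2.17), Celf1 (1.93), Khdrbs1 (1.71), Mbnl2 (1.123), Ptbp3 (1.09), Qk (0.504) and Rbfox2 (0.304). The ranges over the control libraries of Ptbp1, Mbnl1, Celf2 and Mbnl3 did not overlap in that order. Those of Mbnl3 and Celf1, Celf1 and Khdrbs1, Khdrbs1 and Mbnl2, Mbnl2 and Ptbp3, and Qk and Rbfox2 did. Rbfox2 was thus among the 2 lowest of the 10 in every library, also in control 1 and 3 where it was best detected. In the libraries labelled deleted Ptbp1 was again first, at a mean of 10.9 CPM per kilobase, while Mbnl1 was the fifth and Khdrbs1 the third. The order depends on the length used. Per kilobase of the longest annotated transcript Mbnl1 was first in control (14.4), before Celf2 (9.81) and Ptbp1 (8.72), and 4 of the 10 genes kept their rank.

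Protein-coding genes with the pattern most like that of Rbfox2 over the 5 samples were Cep85l, Xkr5 and Adcy4, with root mean square differences of 0.327, 0.346 and 0.366 on the log2 scale among 11291 genes compared. Cep85l was measured at 14.8, 1.16 and 12.7 CPM in control and at 0.767, 8.13 and 2.01 CPM in deleted 1, 2 and 3. Xkr5 was at 2.57, 0.136 and 2.23 CPM in control and at 0, 1.795 and 0.0600 CPM in deleted 1, 2 and 3. Adcy4 was at 2.11, 0 and 2.67 CPM in control and at 0, 0.673 and 0.0300 CPM in deleted 1, 2 and 3. Like Rbfox2, each was high in control 1 and 3, lower in deleted 2 and lowest in the other 3 libraries. They were picked for that likeness, so it is a description and no test.

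Partners and targets of these regulators were also read from lists, and no gene of any list passed the edgeR test. Of 9 genes that encode proteins of the large assembly of splicing regulators around Rbfox or co-regulators of PTB, all 9 were tested, 7 had a fitted change above 0 and 2 below, with a median log2 fold change of 0.13. The smallest p was that of Ddx5, an RNA helicase (127 CPM in control and 244 in the libraries labelled deleted, log2 fold change 0.86, SE 0.324, edgeR adjusted p = 0.468). Of 24 other tissue splicing regulators, 14 were tested, 10 had a fitted change above 0 and 4 below, with a median of 0.24. The smallest p was that of Rbm39, a U2AF-related splicing factor (637 and 338 CPM, log2 fold change -0.96, SE 0.314, edgeR adjusted p = 0.414). Of the neural regulators in the list, Elavl4 was measured at 0.605, 4.51 and 1.03 CPM in control and at 0, 10.7 and 0.0600 CPM in deleted 1, 2 and 3, with the groups overlapping. Nova2, Elavl3 and Srrm4 had at most 33 counts in any library and were not tested.

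Genes with exons known to be regulated by these proteins were compared by their total level, not by exon use. Of 10 genes with Rbfox-regulated exons 7 were tested, 3 with a fitted change above 0 and 4 below, with a median of -0.58. Epb41, a membrane skeleton gene whose exon is a known Rbfox target in red cell development, had the smallest p (6.41 and 22.4 CPM, log2 fold change 1.79, SE 0.961, edgeR adjusted p = 0.650). Of 8 genes with MBNL- or CELF-regulated exons, which include Mbnl1 and Mbnl2 themselves, 5 were tested, 3 above and 2 below, with a median of 0.20, and the smallest p was that of Mbnl1. All 7 genes with PTB-regulated exons were tested and had a fitted change above 0, with a median of 1.02, beside 53.5% above 0 and a median of 0.11 over all genes. The groups overlapped for Src, Actn1, Fas and Dlg4, and Fas was at 0.0426 CPM in deleted 1 against 4.05 to 8.72 in control. The groups did not overlap for Pkm, Tpm1 and Ptbp2, beside 31.2% of all genes. Those of Ptbp2 did overlap once CPM were scaled by TMM factors. The smallest p of the 7 was that of Pkm (309 and 968 CPM, log2 fold change 1.51, SE 0.449, edgeR adjusted p = 0.387). Pkm is the pyruvate kinase gene with mutually exclusive exons that PTBP1 helps to select. Ptbp2 belongs to this list and to the Rbfox list.

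Markers of other cell types differed in level and in pattern across the libraries. B cell markers summed to 211 to 326 CPM in control and 138 to 192 in the libraries labelled deleted, nearly all from Cd79b, which was lower in all 3 of them than in any control (325, 211 and 313 against 178, 138 and 192 CPM, adjusted p = 0.590 by edgeR). T cell markers summed to 0.116 to 0.647 and 0.0852 to 6.68 CPM, mainly from Cd4 (0 to 237 counts, adjusted p = 0.799 by edgeR). Granulocyte markers summed to 22.2 to 26.4 and 18.4 to 73.5 CPM, with Elane at 64 to 165 counts in control and 0 or 1 in the libraries labelled deleted (adjusted p = 0.393 by edgeR). Monocyte and macrophage markers summed to 13.6 to 22.4 and 2.34 to 14.99 CPM, stroma and endothelium markers to 0.310 to 0.580 and 0.140 to 4.47 CPM, and progenitor markers to 49.9 to 101 and 80.4 to 171 CPM. C1qa was also lower in all 3 libraries labelled deleted, at 3.95 to 10.9 CPM in control and 0 to 2.17. The smallest p in these lists was that of C1qa, Col1a2 and Cd34 (edgeR adjusted p = 0.850, 0.850 and 0.740). Among stem cell markers it was that of Ly6a (732 and 363 CPM, edgeR adjusted p = 0.387), among erythroid markers Alas2 (edgeR adjusted p = 0.700) and among megakaryocyte markers Gp9 (edgeR adjusted p = 0.552). The part of these markers in the levels of the 10 regulators was not tested.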

How the data were processed

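Counts of reads per gene for 6 libraries were deposited by the authors without normalization. Per the submitters' processing notes, Trimmomatic 0.39, featureCounts, DESeq2 1.36.0 and mm10 were used. The aligner, annotation, strand setting and treatment of multi-mapping reads were not given in the sources used here. Rows with the same identifier were summed (60 identifiers), and 22831 of 22969 identifiers had a symbol. Gene spans, exon lengths and sequences came from GENCODE M21 on GRCm38.

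Controls 1 and 3 were summed as 1 sample. The test was the quasi-likelihood test of edgeR 4.0.16, run in R 4.3.3 (genes kept by filterByExpr per group, minimum count 10 and minimum total 15, TMM, two-sided, group as the only term, Benjamini-Hochberg over 12350 genes, threshold 0.05). SE was taken as the absolute log2 fold change over the root of the F statistic. Alternatives used limma 3.58.1, DESeq2 1.42.0, other scalings, filters, covariates and left-out libraries. The scripts were tested on simulated data. Precision depends on the depth of 23474895 to 55151484 counts per library.

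The members and lists were chosen with earlier results of these data known. All 10 members were named, with all family relatives, the gene with the smallest p of each list, and the 3 protein-coding genes nearest to Rbfox2 in log2(CPM + 0.1), among those with a mean of at least 0.5 CPM and leaving out predicted genes. Nova1 and Hbb-bt were not analysed here. Protein sequences were not used here, and some marker genes are not reported here.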

Additional observations from a re-analysis of the deposited data

How the results depend on the processing

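No regulator passed an adjusted p of 0.05 under any of the 17 alternative fits, and the smallest adjusted p was 0.0981, for Mbnl1 without deleted 1. In that edgeR fit 2924 of 12346 genes had an unadjusted p under 0.05, beside 1221 of 12350 in the reported fit. Mbnl1 stayed below control and Mbnl2, Ptbp1 and Khdrbs1 above it in all 17. Over all genes, DESeq2 called 181 and the other fits 0. Groups did not overlap for 3 regulators after TMM scaling and for 3 after scaling by DESeq2 size factors (beside 32% and 31.7% of all genes), and, in checks chosen after seeing the data, for 6 without deleted 1 (beside 53.9% of all genes) and for 7 without control 2 (beside 43.8%). With the longest transcript as length, 4 regulators kept their rank. The fit with sex as a covariate rests on deleted 2 alone against the controls, since no control was female. These fitted changes turned sign, and the cause was not tested: Qk with limma-voom (-0.14); Celf1, Celf2 and Qk with sex as a covariate (0.41, -0.031 and -0.99); Celf1 and Ptbp3 with a length correction (0.55 and 0.71) and with a GC correction (0.40 and 0.57); Rbfox2 and Celf1 with control 2 as the only control (1.90 and 0.43). Leaving out 1 library gave -3.76 to -0.97 for Rbfox2, -0.17 to 1.19 for Mbnl3 (below 0 without deleted 2), -0.48 to 0.063 for Celf1 (above 0 without deleted 1, at 0.02, or deleted 3), -0.49 to 0.11 for Ptbp3 (above 0 without deleted 3) and -0.64 to 0.74 for Qk (below 0 without deleted 1). The median of all genes was 0.11 on the log2 scale in the reported fit, -0.32 with limma-voom, 0.53 with the length correction and 0.52 with the GC correction. Relative to it, Mbnl1 was at -1.09, -0.85 with the length correction and -0.95 with the GC correction, and Celf1 at -0.20, 0.02 and -0.12. The fitted Mbnl1 change itself was -0.98 in the reported fit, -0.32 with the length correction and -0.43 with the GC correction.

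Deviations of same-numbered libraries correlated at -0.043, -0.014 and 0.045, and those of other pairs at -0.047 to 0.047. Since control 1 and 3 are nearly the same, this check cannot decide whether replicate numbers pair the libraries. A fit of 6 libraries with the replicate number as a block called 0 genes and 0 regulators, as did the fit without the block (1348 against 2145 genes at an unadjusted p under 0.05). Depth limits Rbfox2 most among the 10, with 2 to 250 counts per library.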
